A study of Mus musculus with 36 samples.

Results

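Chromatin accessibility was compared between mouse bone marrow-derived dendritic cells given depleted zymosan alone and the same cells without a ligand. The comparison rests on the libraries labelled Z, replicates 1 and 2, and Ctrl, replicates 1 and 2, chosen by their titles, which are 4 of the 36 libraries of the study. All 119464 tested peaks of the 119751 listed peaks entered; the peak that spans the mitochondrial genome (chrM) was left out. The study measured accessibility by ATAC-seq, in which a transposase cuts and tags open DNA, in 18 groups of 2 libraries after 6 h with single ligands, pairs or triplets. Both groups of the comparison were cells of female C57BL/6J mice aged 6 to 8 weeks, grown from bone marrow with 15 ng/mL of recombinant GM-CSF; the ligand label is "Zymosan depleted" in one group and "Ctrl" in the other. The cells are a mixed culture and not a sorted type, and the labels do not say whether the 2 libraries of a group came from separate mice or cultures. P-values therefore measure the spread between the 2 libraries of a group, estimated over all 18 groups together. This spread may be technical.

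Zymosan is a preparation of yeast cell wall. In its depleted form it has been treated so that it no longer stimulates Toll-like receptors but still engages Dectin-1, the beta-glucan receptor encoded by Clec7a. Dectin-1 recruits the kinase Syk, and Syk signals through Card9, Bcl10 and Malt1 to the transcription factor NF-kB, through calcium to NFAT and the Egr genes, and through MAP kinases to AP-1. Dendritic cells respond to such signals with cytokine production, maturation and a turn to glycolysis, and feedback inhibitors such as Socs3 and Tnfaip3 limit the response.

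The peaks that opened at promoters are easiest to picture on sequence, and 8 promoters are shown, chosen after their values were seen: 6 hold a match to a motif named here and 2, those of Tnf and Syk, hold none. A peak that changed with depleted zymosan overlaps each of them. They are the 250 bases before a RefSeq start site (GRCm38.p6, the same coordinates as the mm10 build of the files), written 5′ to 3′ on the strand of the gene. Capitals mark every match, on either strand, to the letters GGGANTTNC (NF-kB), TGANTCA (AP-1) or GAAANNGAA (IRF); where matches overlap, the capitals run together. The promoters of Dhrs3 and Syk lie at peaks that were lower, and the others at peaks that were higher.
Cxcl2, chr5:90903649-90903898, + strand: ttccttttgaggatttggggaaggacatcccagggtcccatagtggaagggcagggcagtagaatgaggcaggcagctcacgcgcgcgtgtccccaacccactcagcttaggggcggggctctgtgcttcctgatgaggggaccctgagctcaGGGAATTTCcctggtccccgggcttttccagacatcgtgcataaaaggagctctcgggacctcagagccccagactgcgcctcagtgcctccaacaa
Nfkb2, chr19:46304487-46304736, + strand: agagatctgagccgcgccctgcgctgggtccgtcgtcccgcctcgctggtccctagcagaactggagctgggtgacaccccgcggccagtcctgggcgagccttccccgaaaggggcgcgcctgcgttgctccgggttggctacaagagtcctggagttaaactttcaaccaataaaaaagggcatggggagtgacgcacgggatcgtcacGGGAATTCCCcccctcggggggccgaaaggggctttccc
Il1rn, chr2:24336610-24336859, + strand: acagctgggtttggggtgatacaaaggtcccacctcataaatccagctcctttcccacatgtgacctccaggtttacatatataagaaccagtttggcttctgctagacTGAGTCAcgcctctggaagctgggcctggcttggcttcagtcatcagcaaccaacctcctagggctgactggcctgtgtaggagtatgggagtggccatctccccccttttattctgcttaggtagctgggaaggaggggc
Lif, chr11:4257318-4257567, + strand: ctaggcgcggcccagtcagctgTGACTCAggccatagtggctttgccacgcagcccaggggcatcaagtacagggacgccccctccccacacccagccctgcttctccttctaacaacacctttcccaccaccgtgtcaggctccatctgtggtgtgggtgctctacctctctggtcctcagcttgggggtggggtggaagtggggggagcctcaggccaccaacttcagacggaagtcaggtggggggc
Isg15, chr4:156200819-156201068, - strand: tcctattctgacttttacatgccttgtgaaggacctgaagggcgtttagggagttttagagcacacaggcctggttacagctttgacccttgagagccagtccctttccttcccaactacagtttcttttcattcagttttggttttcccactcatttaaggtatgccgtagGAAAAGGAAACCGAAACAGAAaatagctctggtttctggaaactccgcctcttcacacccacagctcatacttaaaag
Dhrs3, chr4:144892577-144892826, + strand: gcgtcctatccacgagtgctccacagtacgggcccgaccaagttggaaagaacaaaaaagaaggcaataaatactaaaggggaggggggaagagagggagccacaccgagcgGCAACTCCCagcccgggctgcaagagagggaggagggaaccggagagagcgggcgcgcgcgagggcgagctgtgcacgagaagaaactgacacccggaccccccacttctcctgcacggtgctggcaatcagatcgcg
Tnf, chr17:35202008-35202257, - strand: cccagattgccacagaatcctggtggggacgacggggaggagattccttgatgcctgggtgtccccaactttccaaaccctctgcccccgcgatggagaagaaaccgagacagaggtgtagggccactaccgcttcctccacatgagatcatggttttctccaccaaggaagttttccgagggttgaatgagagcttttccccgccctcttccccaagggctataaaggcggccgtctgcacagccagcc
Syk, chr13:52583187-52583436, + strand: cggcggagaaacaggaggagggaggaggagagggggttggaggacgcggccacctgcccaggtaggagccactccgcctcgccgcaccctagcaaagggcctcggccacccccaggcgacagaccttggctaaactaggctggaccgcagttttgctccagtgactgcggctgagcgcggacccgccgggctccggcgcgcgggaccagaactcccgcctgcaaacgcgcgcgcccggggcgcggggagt
The Cxcl2 window held 1 NF-kB match, beginning 97 bases before the start site, and the Nfkb2 window held 2 that overlap, beginning at bases 39 and 38 before the start. Il1rn and Lif each held 1 AP-1 match, at bases 141 and 228 before the start. Isg15 held 3 IRF matches in a row, at bases 78, 72 and 66 before the start. The Dhrs3 window held 1 NF-kB match at base 138 before the start. The windows under higher peaks at Acod1, Socs3, Cish, Junb and Clec4e and those under lower peaks at Ly6c2 held no match either. A match is a run of letters and not a bound site, and no match says only that these letters are not in the window.

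Total counts ran from 25000938 to 29996790 in the 4 libraries, and 9395816 to 11965163 of them fell outside chrM. The chrM peak took 61.9% and 60.1% of the counts in control and 62.4% and 60.9% with depleted zymosan. A single peak at chromosome 1, 24611386 to 24616337, held 25.1% to 27.5% of the remaining counts in these libraries. Its count was 16.4 to 16.9 per 100 chrM counts in each of the 36 libraries, and the part of stray mitochondrial reads in it was not tested. The correlation of log2 CPM (the usual scaling of a peak's count to the size of its library, here outside chrM and TMM-corrected) across peaks was 0.948 between the control libraries, 0.940 between the depleted zymosan libraries and 0.913 to 0.926 between the groups. Their counts differed by more than sampling noise, with a chi-square per degree of freedom of 2.39 and 2.36, so no library was counted more than once. Of the dendritic cell markers, 9 of 10 genes had a tested peak, and their highest peaks summed to 140 and 133 CPM in control and 149 and 152 CPM with depleted zymosan. The macrophage and monocyte markers (10 of 10 genes) summed to 239 and 218 CPM against 190 and 210 CPM, and those of neutrophils (7 of 10) to 64.2 and 51.0 against 66.1 and 57.1 CPM. Those of T and NK cells (4 of 8) summed to 26.4 and 24.4 against 29.4 and 30.1 CPM, with Cd3e near 0 at 0.33 and 0 against 0.26 and 0 CPM, and those of B and plasma cells (5 of 7) to 23.6 and 21.5 against 19.9 and 20.5 CPM. Mast cell and basophil markers (3 of 8) summed to 14.2 to 15.8 CPM, those of erythroid and stem cells (5 of 8) to 70.9 to 75.7 CPM and those of osteoclasts (7 of 7) to 87.5 and 75.5 against 62.7 and 72.5 CPM. The highest peak at the receptor gene Clec7a read 13.1 and 13.2 CPM in control and 16.7 and 12.3 CPM with depleted zymosan (adjusted p = 0.784 by edgeR's quasi-likelihood test), so the receptor locus was accessible in both groups.

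Depleted zymosan changed 7062 of the 119464 tested peaks (5.91%) by edgeR's quasi-likelihood test at an adjusted p-value under 0.05. Of these, 4966 were higher (4.16% of tested peaks) and 2096 were lower (1.75%), so that 70.3% of the changed peaks were higher. At 7038 of the changed peaks both depleted zymosan libraries lay beyond both control libraries, which held for 45.8% of all tested peaks. In bulk libraries a change in the share of cells that open a site and a change in the signal per cell cannot be told apart. Fewer peaks changed without any 1 library: 3604 without control replicate 1, 4294 without control replicate 2, 3852 without depleted zymosan replicate 1 and 4144 without depleted zymosan replicate 2, of which 70.8% to 76.8% were higher. Scaling choices moved the share that was higher between 64.8% and 72.2%.

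**Figure D1:**
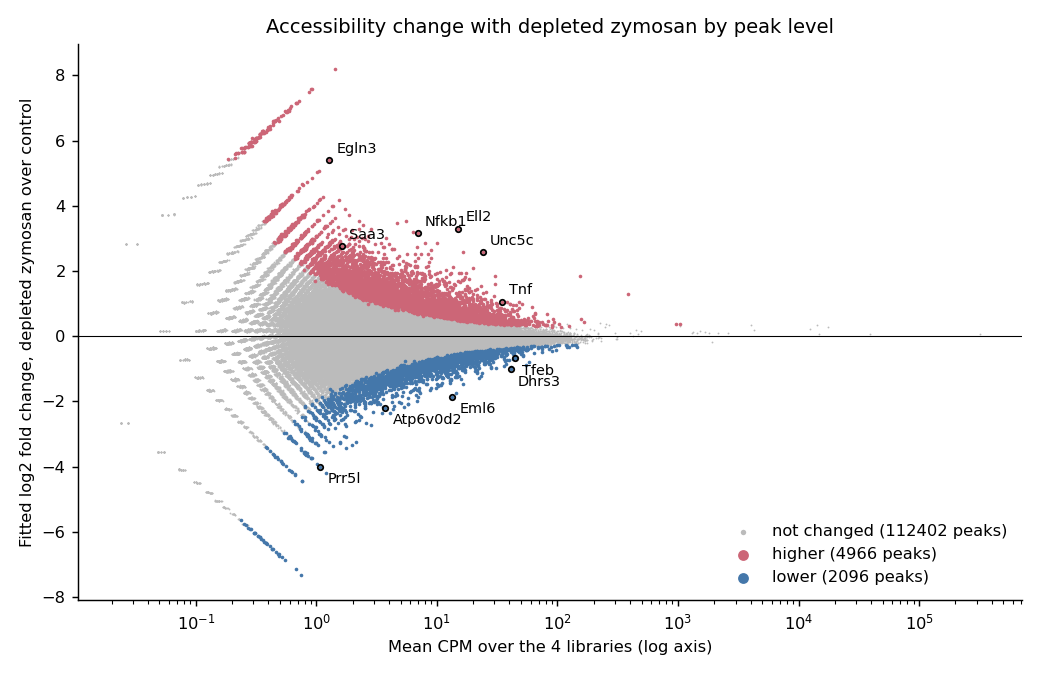
Fitted log2 fold change of depleted zymosan over control (vertical axis) against the mean CPM of the 4 libraries (horizontal log axis) for the tested peaks, of which 4966 were higher (red), 2096 lower (blue) and 112402 not changed (grey); the 20 peaks without a count in the 4 libraries are not drawn. At a mean of at least 5 CPM 751 peaks lie above a 2-fold change and 349 below one, and named peaks are circled.

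The excess of higher peaks lay in the tail of the distribution and not in its centre. Over all tested peaks 50.1% of the log2 fold changes were above 0 and the median was 0.00. Where the 4 libraries did not overlap, 27712 peaks had depleted zymosan above control and 27018 had it below. At an unadjusted p under 0.05, 57.8% of 22507 peaks were higher. The outer percentiles were uneven: 2.5% of tested peaks lay below a log2 fold change of -1.48 and 2.5% lay above 1.89. More than a 2-fold difference was fitted above control at 12080 peaks and below it at 8170, and among peaks with a mean of at least 5 CPM at 751 and 349. The share of changed peaks that were higher went up with the size of the change, from 55.7% for an absolute log2 fold change under 0.5 through 65.4% (0.5 to 1) and 72.2% (1 to 2) to 78.3% at 2 or more.

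Peaks that rose started from lower levels than peaks that fell. The 4966 higher peaks had median levels of 2.62 and 2.51 CPM in the control libraries and 6.56 and 6.29 CPM in the depleted zymosan libraries, with a median log2 fold change of 1.28. The 2096 lower peaks went from medians of 9.72 and 8.97 CPM to 4.20 and 4.51 CPM, with a median log2 fold change of -1.07. All tested peaks had a median of 2.10 CPM in control, below both sets. These levels chose the peaks in part and are given as a description. Of the higher peaks, 1388 (28.0%) had under 1 CPM in control and 113 had no control count at all; of the lower peaks, 33 had no count with depleted zymosan. The tested peaks were split into 10 equal bins by mean CPM. Of the changed peaks, 79.9% were higher in the lowest bin, 75.8% in the sixth and 60.3% in the highest. Higher peaks outnumbered lower ones in each bin, with 163 against 41 in the lowest and 740 against 487 in the highest. Over all tested peaks, changed or not, 58.3% lay above 0 in the lowest bin and 42.4% in the highest, so in the highest bin most peaks leaned down while most changed peaks were higher.

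**Figure D2:**
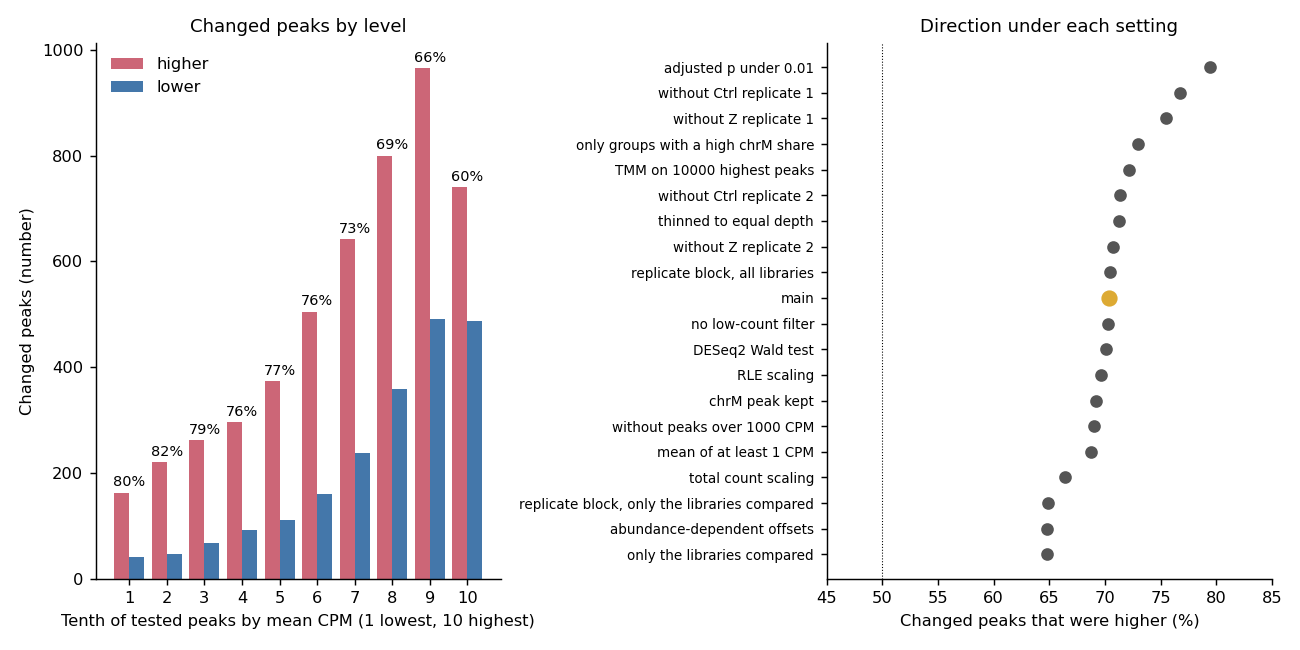
Left, number of changed peaks that were higher (red) and lower (blue) in each of 10 equal bins of tested peaks by mean CPM, with the percent higher above the bars, from 79.9% in the lowest to 60.3% in the highest bin. Right, percent of changed peaks that were higher under each processing setting, with the reported value (70.3%) in yellow and a dotted line at 50; every setting drawn lies between 64.8% and 79.4%.

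The directions also differed by position. Of the higher peaks 4.73% lay within 1 kb of a protein-coding start site, against 9.26% of the lower peaks and 10.5% of all tested peaks. At start sites 54.8% of the changed peaks were higher, inside genes 69.2% and outside genes 73.8%. The median distance to a start site was 36.3 kb for higher peaks, 29.0 kb for lower peaks and 26.9 kb for all. The gene table gives spans and the start table gives strand for 17492 of 21900 coding genes, so exons, introns and UTRs were not separated. Wider peaks were more often higher: 59.9% of the changed peaks in the narrowest of 4 equal bins of width and 74.6% in the widest. Level differed with position: the median was 13.2 CPM at start sites, 1.88 CPM inside genes and 1.91 CPM outside genes. Peaks differ in level as well as in width, and level, width and position were not separated.

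The 4 rises of the smallest p-value were at sites inside genes. Ell2 encodes an elongation factor of RNA polymerase II, and its peak at chromosome 13, 75754043 to 75755548, read 2.84 and 2.70 CPM in control and 27.6 and 27.3 CPM with depleted zymosan. Both depleted zymosan libraries stood far above both control libraries, and the fold change was 3.30 ± 0.19 on the log2 scale (± SE; edgeR's adjusted p = 8.58e-37). A peak in Unc5c, a netrin receptor gene, at chromosome 3, 141537912 to 141538808, read 6.99 and 6.75 CPM against 40.6 and 41.9 CPM. It rose by 2.58 ± 0.15 (edgeR's adjusted p = 1.26e-36), without overlap. A peak in Alcam, which encodes an adhesion molecule of the immunoglobulin family, read 4.37 and 4.92 CPM against 26.8 and 29.4 CPM. A peak in Cemip2, a hyaluronan-binding membrane protein gene, read 14.0 and 12.2 CPM against 43.7 and 50.7 CPM. These rose by 2.59 ± 0.16 and 1.86 ± 0.13, and the groups did not overlap at either.

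The 4 falls of the smallest p-value were at 1 start site, at 2 sites inside genes and at 1 outside. At the start of Dhrs3, a retinal reductase gene whose promoter is shown above, the peak at chromosome 4, 144891954 to 144893172, read 51.9 and 58.0 CPM in control and 26.2 and 28.0 CPM with depleted zymosan. It fell by 1.02 ± 0.14 on the log2 scale (edgeR's adjusted p = 3.31e-09), with no overlap between groups. A peak in Eml6, which encodes a microtubule-associated protein, read 21.1 and 21.1 CPM against 3.94 and 7.55 CPM. It fell by 1.85 ± 0.26, the largest change of these 4. A peak 34652 bp from Scel read 30.5 and 34.2 CPM against 13.9 and 15.3 CPM, and one in Itprid2 read 33.4 and 30.3 CPM against 11.4 and 14.5 CPM. These fell by 1.14 ± 0.16 and by 1.29 ± 0.19, again without overlap.

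**Figure D3:**
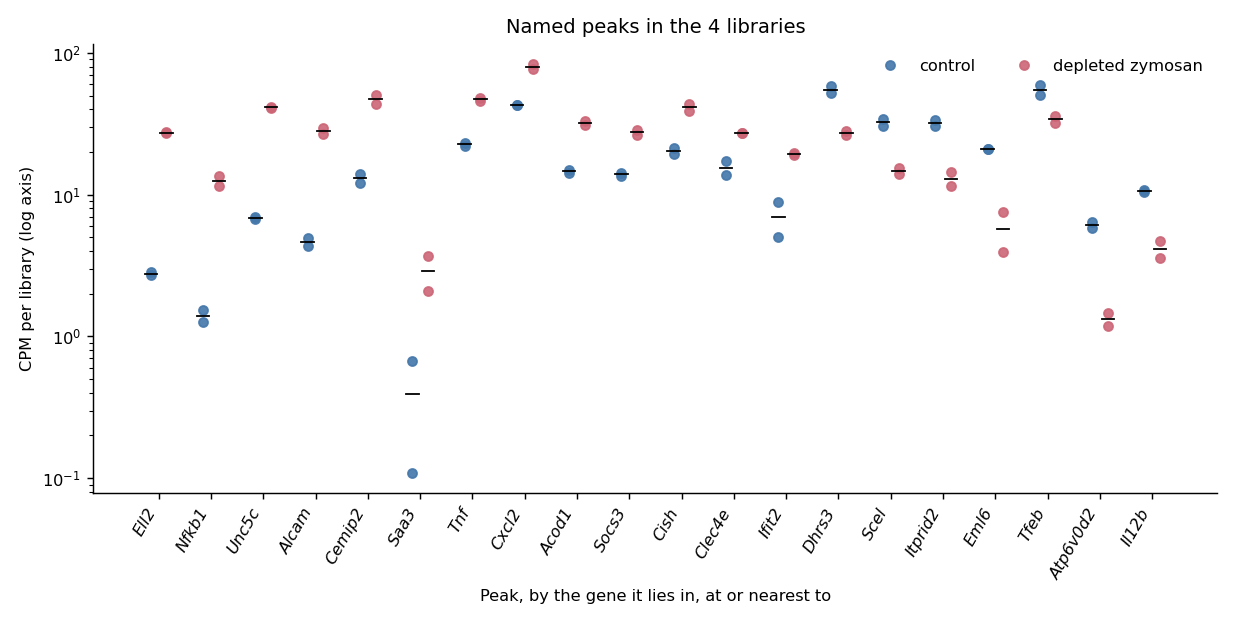
CPM of each library (log axis) at 20 of the named peaks, by the gene they lie in, at or nearest to, in control (blue, 2 libraries) and with depleted zymosan (red, 2 libraries); black bars are means of 2. The groups do not overlap at any of the peaks drawn, the first 13 rising (Ell2 from 2.77 to 27.4 CPM) and the last 7 falling (Dhrs3 from 54.9 to 27.1 CPM).

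The largest fold changes came from peaks with next to no counts in one group. A peak 34030 bp from Armc4, at chromosome 18, 7053786 to 7054203, was without a count in control (0 and 0) and held 35 and 11 with depleted zymosan, which is at least 4.13 higher on the log2 scale against a floor of 3 counts over the control group. A peak 127012 bp from Egln3, the gene of a prolyl hydroxylase that acts on HIF, had 0 and 1 counts against 12 and 33 counts, a ratio of 51.2 with a 95% counting interval of 8.73 to 2067. These intervals cover counting error only, since the reads carry no molecular identifiers. The next 6 lay in or near Maco1, Inpp4b, Iigp1, Kdm7a, Lrfn2 and the near-identical pair Gm16867 and Gm21451, whose reads may be split between copies. Their ratios ran from 19.0 (interval 6.13 to 95.1) at the pair to 39.8 (6.69 to 1618) at Maco1. Iigp1, an interferon-inducible GTPase gene, had 2 and 0 counts 368 bp away against 16 and 21 counts.

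Among peaks that closed, the 8 largest fold changes again stood on few counts. A peak in Fam149a had 21 and 24 counts in control and 0 and 2 counts with depleted zymosan, a ratio of 0.051 (95% counting interval 0.0059 to 0.194). A peak in Prr5l, whose product associates with the mTORC2 kinase complex, had 14 and 26 counts against 2 and 0, a ratio of 0.057 (0.0067 to 0.219). A peak 3245 bp from Spsb1 had 19 and 18 counts against 0 and 2, a ratio of 0.062 (0.0072 to 0.238). The others lay in Asic2, Rrbp1, Ptrhd1 and Ccdc125 and 372407 bp from Mef2c. The Mef2c peak had 30 and 5 counts in control, so its control libraries were far apart, and it kept its call in 10 of 13 alternatives.

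At start sites the largest rises were small peaks. The acute-phase gene Saa3 rose from 0.11 and 0.67 CPM to 3.67 and 2.10 CPM (log2 fold change 2.77 ± 0.56), and Riox2 from 0.87 and 0.97 CPM to 5.12 and 3.88 CPM (2.27 ± 0.43). The start of Unc5c rose from 0.22 and 0.67 CPM to 1.84 and 3.15 CPM, a smaller peak than the one inside the gene. Olfr919, Cltrn and Olfr547 completed the 6 highest, with 2.21 to 2.73. The 6 lowest starts were those of Fam184b, Pigt, Hip1r, Pvrig, Psd4 and Ppp1r3g, with log2 fold changes of -3.02 to -2.16. Pigt, a subunit gene of the GPI transamidase, went from 2.19 and 1.74 CPM to 0.53 and 0.10 CPM (-2.69 ± 0.66). Fam184b and Ppp1r3g kept their calls in 11 of 14 and 9 of 16 alternatives, and Pvrig and Olfr919 in 10 of 16 each.

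Windows of 100 kb were ranked by their number of higher or of lower peaks, so the first ones hold many by the choice. Whether changed peaks gather in loci was not tested. Over all tested peaks 4.16% were higher and 1.75% lower. Of windows of 100 kb, chromosome 11, 119400000 to 119499999, over Endov and the ubiquitin ligase gene Rnf213, held the most, with 11 higher of 78 tested peaks. The next was chromosome 16, 84600000 to 84699999, with 9 of 24, with Mrpl39 as the nearest coding gene. Then 4 windows tied at 8 higher peaks, of which chromosome 8, 40800000 to 40899999, over the arginine transporter gene Slc7a2, with 8 of 35, had the largest summed fold change; the others lay over Nfkb1 (8 of 36), Il1rn (8 of 31) and Plpp3 (8 of 35). Within 20 kb of its span, Rnf213 had 14 higher peaks of 93 tested, with log2 fold changes of 0.35 to 5.76. Of the lower peaks, the fullest window had 5 lower of 21 tested peaks, in the histone gene cluster at chromosome 13, 23700000 to 23799999, with log2 fold changes of -1.07 to -0.58. The next 2 had 4 of 7 around Sema6d and 4 of 8 around Naa11.

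The chromosome 16 window lies upstream of Mir155, the gene of a microRNA that is known as a product of NF-kB and AP-1 signalling in myeloid cells. It was named after its values were seen. The hairpin lies at chr16:84714140-84714204 on the + strand, inside a higher peak. Its main mature product is shown because the window upstream had rank 2 by number of higher peaks. Capitals mark the seed, bases 2 to 8 (RefSeq, GRCm38.p6).
mmu-miR-155-5p: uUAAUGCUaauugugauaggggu
From 120 kb before the hairpin to 30 kb after it, 12 of 35 tested peaks were higher and 1 was lower. The peak over the hairpin, chromosome 16, 84711200 to 84714913, read 14.3 and 9.45 CPM in control and 34.4 and 34.5 CPM with depleted zymosan (log2 fold change 1.55 ± 0.13). A peak 31.9 kb upstream read 0.22 and 0.58 CPM against 3.94 and 4.93 CPM, and the one 110 kb upstream read 7.10 and 7.24 CPM against 29.3 and 25.5 CPM. These rose by 3.42 ± 0.43 and 1.93 ± 0.15, and at all 3 the groups did not overlap. The lower peak, 21.3 kb downstream, read 51.8 and 50.4 CPM against 36.1 and 35.98 CPM (-0.50 ± 0.12).

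**Figure D4:**
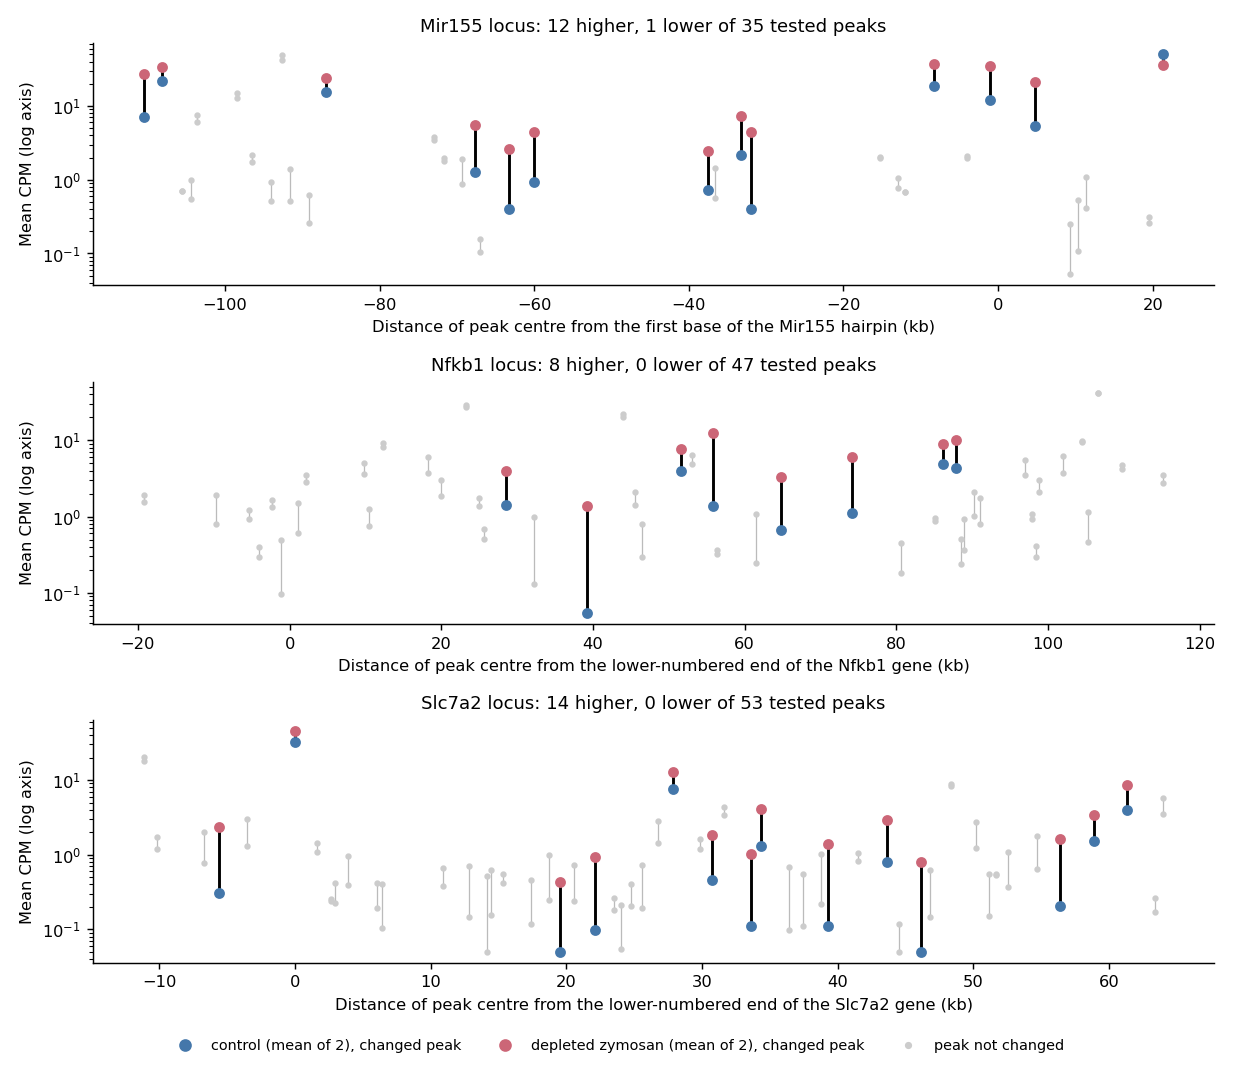
Mean CPM of each tested peak (log axis) in control (blue) and with depleted zymosan (red) at changed peaks, joined by a black line, and in grey at peaks not changed, by distance of the peak centre in kb; means of 0 are drawn at 0.05 CPM. At the Mir155 locus 12 peaks were higher and 1 was lower, and 8 peaks within or near Nfkb1 and 14 within or near Slc7a2 were higher; the gene table gives no strand for the last 2 genes.

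The genes of the receptor pathway themselves changed little as a group. Within 1 kb of the spans of 20 genes of Dectin-1 signalling, 10 of 197 tested peaks were higher and 2 were lower, beside 4.16% and 1.75% of all tested peaks, and the median log2 fold change was 0.00, as over all tested peaks. Leaving out 1 library gave 5 to 9 higher. The related receptor gene Clec4e, which encodes Mincle, rose at 3 peaks, the one at its start from 13.8 and 17.2 CPM to 27.3 and 27.4 CPM (0.82 ± 0.14). Malt1 rose at 2 peaks and Prkcd at 1. A start of Syk fell from 18.7 and 20.1 CPM to 12.3 and 10.4 CPM (-0.78 ± 0.18), while 2 peaks inside Syk rose. The window of another Syk start lay at a peak that did not change. The highest peak at Card9 read 15.6 and 15.1 CPM against 11.4 and 12.0 CPM (edgeR's adjusted p = 0.200).

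NF-kB genes had the largest share of higher peaks together with interferon genes. Genes of NF-kB subunits, inhibitors and feedback had 120 tested peaks at 14 genes. Of these, 22 were higher (18.3%, beside 4.16% of all tested peaks) and 0 lower (beside 1.75%) by edgeR. The median log2 fold change of the 120 was 0.29. At an unadjusted p under 0.05, 36 were higher and 5 lower, and DESeq2 called 22 and 0. Without 1 library 10 to 14 were higher, the fewest without depleted zymosan replicate 1. Of the 22, 8 lay in Nfkb1, the gene of the p105 and p50 subunit, and the strongest of these, chromosome 3, 135640041 to 135640780, read 1.53 and 1.25 CPM in control and 11.4 and 13.4 CPM with depleted zymosan (3.16 ± 0.25; edgeR's adjusted p = 8.5e-23). The 8 peaks stood at 0.05 to 4.85 CPM in control and at 1.36 to 12.4 CPM with depleted zymosan, and at none of them did the groups overlap. Tnfaip3, a deubiquitinase gene that limits NF-kB, rose at a downstream RefSeq start from 4.37 and 4.15 CPM to 9.19 and 10.8 CPM (1.24 ± 0.22). The window of its upstream start, which held an NF-kB and an AP-1 match, lay at a peak that did not change. Nfkb2, whose promoter is shown above, rose from 39.9 and 46.6 CPM to 63.5 and 54.7 CPM (0.44 ± 0.10). Tnip1, Nfkbiz, Traf1, Nfkbie and Birc3 also had higher peaks.

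By gene, where no share over all genes was counted, 8 of 16 interferon-stimulated and related genes with a tested peak had a higher peak. Of their 82 peaks, 15 were higher (18.3%, beside 4.16% of all tested peaks) and 0 lower by edgeR, with a median log2 fold change of 0.59; at an unadjusted p under 0.05 the counts were 29 and 1, and DESeq2 called 16 and 0. Leaving out 1 library gave 11 to 15 higher. A peak in Rsad2, which encodes the antiviral enzyme viperin, rose from 25.6 and 28.0 CPM to 50.3 and 56.9 CPM (1.00 ± 0.10). A peak in Ifit2 rose from 8.85 and 5.02 CPM to 19.2 and 19.7 CPM (1.51 ± 0.17), and one shared by Ifit1 and Ifit1bl1 rose from 3.82 and 5.79 CPM to 12.9 and 16.6 CPM (1.61 ± 0.21). The Isg15 promoter shown above lies in a peak that rose from 8.85 and 10.8 CPM to 16.9 and 19.1 CPM (0.87 ± 0.16). Oasl1, Cxcl10 and Irf7 were among the other genes with a higher peak, and the neighbouring start of Agrn falls within the span counted for Isg15.

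Of 87 peaks at 20 cytokine, chemokine and other inflammatory genes, 8 were higher (9.20%, beside 4.16% of all tested peaks), 5 of them at start sites, and 1 was lower, with a median log2 fold change of 0.40; without 1 library 3 to 8 were higher. The peak over Tnf read 23.3 and 22.0 CPM in control and 46.1 and 47.9 CPM with depleted zymosan (1.06 ± 0.11), and that over the chemokine gene Cxcl2 read 42.9 and 43.1 CPM against 82.9 and 76.9 CPM (0.89 ± 0.10). Cxcl3, Ccl4, Lif, Nos2 and Ptgs2 also had higher peaks, that at the start of Lif going from 1.42 and 0.97 CPM to 3.81 and 3.46 CPM (1.61 ± 0.42). The 1 lower peak lay in Il12b, the gene of the p40 subunit of IL-12 and IL-23. It fell from 10.4 and 10.8 CPM to 4.72 and 3.57 CPM (-1.36 ± 0.29). The other listed genes had no changed peak: Il6, Il10, Il12a, Il23a, Il1a, Il1b, Csf2, Csf3, Cxcl1, Ccl2, Ccl3 and Ccl22. A start of Il1rn, the gene of the IL-1 receptor antagonist, was not listed and was picked after its values were seen. It rose from 0.55 and 1.06 CPM to 2.62 and 4.51 CPM (2.14 ± 0.45), and 6 of 19 peaks within 20 kb of that gene were higher. Windows of other Il1rn starts lay at peaks that did not change.

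Feedback inhibitors had a higher peak at 7 of 15 genes, and so did genes of glycolysis and immunometabolism. The share of all genes with a higher peak was not counted, and a gene with more tested peaks has more occasions for one. The shares below stand beside 4.16% higher and 1.75% lower over all tested peaks. Of 83 peaks at the feedback genes, 10 were higher (12.0%) and 1 was lower (median 0.16; 5 to 6 higher without 1 library). Cish and Socs3, which encode inhibitors of cytokine receptor signalling, rose at their starts from 19.2 and 21.2 CPM to 43.7 and 38.9 CPM (1.02 ± 0.13) and from 13.5 and 14.3 CPM to 28.7 and 26.3 CPM (0.98 ± 0.13). Of 159 peaks at the metabolic genes, 16 were higher (10.1%) and 3 lower (median 0.21; 9 to 13 higher without 1 library). The glycolytic genes Eno1, Ldha, Pkm and Pgk1 and the arginase gene Arg1 had no changed peak. The start of Acod1, whose product makes itaconate, rose from 15.0 and 14.2 CPM to 33.3 and 30.8 CPM (1.14 ± 0.14). Peaks in Hk1, a hexokinase gene, and Pfkfb3, a regulator of glycolysis, rose by 1.50 ± 0.22 and 1.05 ± 0.17. Hk1 and Pfkfb3 each also had a lower peak, as did Slc7a11.

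Of 145 peaks at 18 maturation genes, 14 were higher (9.66%) and 2 lower (median 0.08; 5 to 10 higher without 1 library), among them peaks in Cd40, which went from 9.83 and 11.8 CPM to 18.2 and 20.5 CPM (0.84 ± 0.15), Cd86, Cd274 and Ly75. The 2 lower ones were in Cd83 and Ciita. Ciita also had a higher peak and is in the dendritic cell marker list as well. Higher peaks lay at 7 of the 18 genes, and the share over all genes was not counted. Ccr7, Cd80, Ccl17, Ccl22, Fscn1, Relb, Socs2, H2-Aa, H2-Ab1 and H2-Eb1 had no changed peak. Of all tested peaks, 4.16% were higher and 1.75% lower. Of 51 peaks at AP-1 and related genes, 4 were higher (7.84%), in Maff (2), Junb and Mafk, and 0 lower by edgeR. At an unadjusted p under 0.05 the counts were 9 and 1, and DESeq2 called 4 and 1. Without 1 library 1 to 3 of them were higher. Of 143 peaks at genes of calcium and NFAT signalling and the Egr and Nr4a families, 7 were higher and 1 lower with a median of -0.10, below that of all tested peaks, and without 1 library 1 to 5 were higher. At the calcium, NFAT, Egr and Nr4a genes the shares were 4.90% higher and 0.70% lower, near the 4.16% and 1.75% of all tested peaks. Lysosome and phagosome genes had 3 higher (1.72%) and 5 lower (2.87%) of 174 (median 0.01). The higher ones were 2 peaks at the start of Sqstm1, an autophagy receptor gene (0.62 ± 0.13 and 0.40 ± 0.13), and 1 in Mitf (1.04 ± 0.31), and another peak in Mitf was lower (-1.05 ± 0.24). The lower ones also included starts of Tfeb and Tfe3, transcription factors that control lysosome genes. Tfeb fell from 59.0 and 50.6 CPM to 32.0 and 35.98 CPM (-0.68 ± 0.11) and Tfe3 from 19.9 and 17.7 CPM to 11.7 and 12.4 CPM (-0.64 ± 0.18). The window of another Tfe3 start lay at a peak that did not change. A peak in Atp6v0d2, a subunit gene of the vacuolar proton pump, fell from 5.79 and 6.46 CPM to 1.18 and 1.47 CPM (-2.19 ± 0.43). Housekeeping genes had 1 higher peak of 53 (1.89%), at the start of Gapdh (0.33 ± 0.11), and 0 lower by edgeR and by DESeq2. There was 1 lower at an unadjusted p under 0.05, and the median was 0.13. Of 67 peaks at the macrophage and monocyte markers 2 were higher (2.99%) and 3 lower (4.48%). Adgre1 and Mertk each had a peak that rose (1.30 ± 0.34 and 1.70 ± 0.47). The start of Ly6c2 fell from 6.56 and 5.21 CPM to 1.97 and 2.62 CPM (-1.33 ± 0.35), and 2 peaks in Csf1r fell. Of 66 peaks at the dendritic cell markers 4 were higher (6.06%) and 1 lower (1.52%). The start of Itgax rose from 13.7 and 16.5 CPM to 27.4 and 20.1 CPM (0.64 ± 0.17). The part of a shift in cell types in any of these results was not tested.

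Promoters under higher peaks held some motifs more often than other promoters. Of the 300-base RefSeq windows (250 bases before to 50 after a start), 190 overlapped a higher peak, 224 a lower peak and 11659 only peaks that did not change. The AP-1 letters TGANTCA were in 17.9% of the windows under higher peaks, 5.36% of those under lower peaks, 4.73% of those under unchanged peaks and 6.99% of all 21263 windows. The NF-kB letters GGGANTTNC were in 9.47%, 5.36%, 4.94% and 4.37%, and the C/EBP letters TTGCNNAA in 17.4%, 9.82%, 8.17% and 10.2%. NFAT (TGGAAA) was in 27.4%, 15.2%, 15.8% and 19.3%, EGR (GNGTGGGNG) in 23.2%, 17.0%, 17.7% and 15.5%, and IRF (GAAANNGAA) in 11.6%, 8.48%, 7.11% and 8.15%. PU.1 (GAGGAAG) was in 13.7%, 15.6%, 13.5% and 13.6% and CTCF (CNAGGNGGC) in 12.1%, 12.1%, 13.0% and 9.96%. RUNX (TGTGGT) was in 15.8%, 12.5%, 12.2% and 15.0% and the E-box CACGTG in 10.5%, 13.8%, 10.3% and 7.84%. Both strands were searched, and a base could count for more than 1 motif. Windows under higher peaks also held fewer CpG, with a median of 12 against 20 under lower and 21 under unchanged peaks, and the part of base composition in these shares was not tested.

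The same addition of depleted zymosan was measured on 3 stimulated backgrounds with no library in common with the comparison above: on S (labelled SeV), on cG (labelled 3',3'-cGAMP) and on both (ScG). By edgeR it changed 3017 peaks on S (2.53% of tested peaks; 1817 higher, 1.52%, and 1200 lower, 1.00%), 3425 on cG (2.87%; 2178 higher, 1.82%, and 1247 lower, 1.04%) and 922 on ScG (0.772%; 387 higher, 0.324%, and 535 lower, 0.448%). Leaving out 1 library gave 787 to 1613, 1004 to 2140 and 152 to 457. The peaks that opened without another ligand did not rise in general on S, where 185 of the 4966 were higher and 152 lower, with a median log2 fold change of -0.01. On cG 459 were higher and 77 lower with a median of 0.20, and on ScG 36 were higher and 74 lower with a median of -0.08. Peaks that had closed leaned the same way on each background: 70 of the 2096 were lower and 8 higher on S, 74 and 8 on cG and 33 and 3 on ScG, with medians of -0.19, -0.15 and -0.17. The 459 peaks higher in both were 9.24% of those higher against control and 21.1% of those higher on cG. Tested against the effect on control, the effect on S differed at 4098 peaks (3.43%), that on cG at 2980 (2.49%) and that on ScG at 3949 (3.31%). The chrM peak took 47.1% and 48.7% of the counts on S alone and 58.1% and 50.98% with depleted zymosan added. On cG the shares were 44.99% and 47.3% alone and 62.8% and 63.1% with it. On ScG they were 57.3% and 61.5% alone and 57.9% and 58.7% with it. The part of these shares in the effects on S, cG and ScG, at single peaks too, was not tested.

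**Figure D5:**
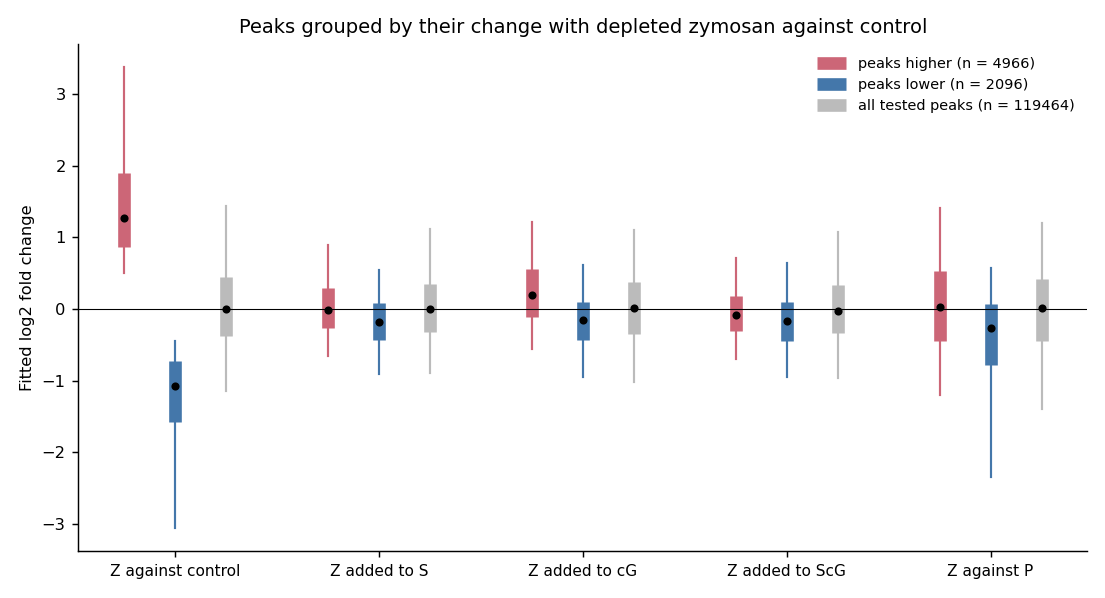
Fitted log2 fold change in 5 contrasts for the 4966 peaks higher (red) and 2096 peaks lower (blue) with depleted zymosan against control and all tested peaks (grey); dots are medians, thick bars span the middle 50% of peaks and thin lines the 5th to 95th percentile. The first contrast chose the red and blue peaks, and the last shares the Z libraries with it; on S, cG and ScG the medians of the higher peaks are -0.01, 0.20 and -0.08 and those of the lower peaks are -0.19, -0.15 and -0.17.

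The levels of these peaks with the other single ligands are given as a description. The peaks were chosen by the same 2 control libraries that each ligand is set beside, so part of any distance from control is fixed by the choice, and no test was made. The higher peaks' median level was 2.57 CPM in control, 6.43 CPM with depleted zymosan, 6.78 CPM with P (labelled PAM), 6.27 CPM with S, 5.67 CPM with L (LPS), 5.33 CPM with cG and 4.94 CPM with H (HMW), each the mean of 2 library medians. The lower peaks stood at 9.35 CPM in control and between 4.12 CPM (S) and 5.45 CPM (H) with any single ligand. Peaks that were not changed lay between 1.96 and 2.05 CPM in these 7 groups. A direct contrast of depleted zymosan with P changed 13262 peaks (11.1%), 7153 higher with depleted zymosan (5.99%) and 6109 lower (5.11%). Leaving out 1 library gave 6926 to 9386. Of the 4966 higher peaks, 749 were higher with depleted zymosan than with P and 760 were lower. The chrM peak took 50.5% and 48.5% of the counts with P and 62.4% and 60.9% with depleted zymosan. With L, H, S and cG it took 44.1% to 53.4%. The part of these shares in the contrast with P and in the levels above was not tested.

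Single peaks followed different courses across the ligands. The Ell2 peak stood at 47.6 CPM with P, 25.4 CPM with L, 19.7 CPM with H, 21.0 CPM with S and 17.9 CPM with cG, all above the 2.77 CPM of control, and adding depleted zymosan changed it by 0.16 on S, 0.33 on cG and -0.30 on ScG, none of which passed the test. The Ifit2 peak stood at 3.85 CPM with P, below the 6.93 CPM of control, at 19.4 CPM with depleted zymosan and at 31.4 to 63.2 CPM with the other 4 ligands. The difference between depleted zymosan and P there was 2.34 on the log2 scale (edgeR's adjusted p = 1.27e-24). A small peak in Egr1, chromosome 18, 34862549 to 34863117, read 0.33 and 0.39 CPM in control and 1.31 and 3.25 CPM with depleted zymosan (2.67 ± 0.64). Depleted zymosan raised it again on S by 2.62 (edgeR's adjusted p = 0.000142) and on cG by 1.90 (adjusted p = 0.0117), and the value on ScG was 1.22 (adjusted p = 0.210). The start of Dusp1, a MAP kinase phosphatase gene, rose by 0.46 ± 0.12 against control, by 0.44 on S and by 0.54 on ScG, with 0.34 on cG (edgeR's adjusted p = 0.0551). The Pigt start peak stood at 1.96 CPM in control and 1.68 to 2.84 CPM with the other 5 ligands, against 0.31 CPM with depleted zymosan alone. It rested on 20 and 18 counts in control against 4 and 1. The peak was named for its large fall with depleted zymosan, so its distance from the other ligands is in part fixed by the choice. Adding depleted zymosan changed it by -0.51 on S, -1.03 on cG and -0.78 on ScG, none of which passed the test.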

How the data were processed

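The authors deposited raw counts of ATAC-seq reads per peak for 36 libraries and 1 peak list for the series. Per the labels' protocols, 50000 cells were lysed and tagmented and libraries were amplified for 12 PCR cycles. The submitters' processing notes name Bowtie2 2.2.9, MACS2, bedtools, featureCounts and mm10. Whether peaks were called on pooled libraries, and how duplicates and the transposase offset were treated, is not given in the sources used here.

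The counts were fitted in edgeR 4.0.16 (R 4.3.3), with the quasi-likelihood test, TMM scaling, 1 coefficient per group over all 36 libraries and the chrM peak left out. A minimum count of 10 (filterByExpr) dropped 286 peaks. A peak was called higher or lower at a Benjamini-Hochberg adjusted p under 0.05 over 119464 peaks. The fit was tested on simulated data. Alternatives included DESeq2 1.42.0, other scalings and each library left out. The comparisons, gene lists and named peaks were chosen with earlier results of these data known. Named peaks were, in each direction, the 8 largest fold changes (mean of at least 1 CPM, groups not overlapping), the 4 smallest p-values and the 6 largest fold changes at start sites, then the 4 smallest p-values of each list and the 3 fullest windows of 100 kb per direction; others were named after their values were seen. Peaks were assigned by RefSeq GRCm38.p6 gene tables, in which 236 of 238 listed genes matched. A planned motif search at peak centres needs a genome and was replaced by RefSeq promoter windows. Between control and depleted zymosan no pairing by replicate number was seen: the deviations of same-numbered libraries correlated at -0.014. The other groups were not checked in this way. Some listed genes are not reported here by name.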

Additional observations from a re-analysis of the deposited data

Results flagged for a closer look

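The effect of depleted zymosan on a stimulated background differed from its effect on control, by a test of that difference itself in edgeR's quasi-likelihood fit, at 4098 peaks on S, 2980 peaks on cG and 3949 peaks on ScG. The log2 fold change was lower on the background than on control at 3111 of the 4098, 2080 of the 2980 and 3264 of the 3949. Of the 80 named peaks, the difference passed at 46 on S, 43 on cG and 50 on ScG; many of these peaks were chosen for a large effect on control, and the test uses the same Z and control libraries, so a smaller effect on a background is favoured by the choice. At Ell2 it was -3.15 on S, -2.97 on cG and -3.60 on ScG, and at the strongest Nfkb1 peak -4.04, -3.19 and -3.70. The peak stood at 21.0 CPM in S and 17.9 CPM in cG for Ell2, against 2.77 CPM in control. At the small Egr1 peak, chromosome 18, 34862549, the difference was -0.05, -0.77 and -1.45 and passed on none of the 3 backgrounds. The part of the chrM shares in the differences between backgrounds and control was not tested.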

How the results depend on the processing

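The share of changed peaks that were higher was 64.8% or more in every alternative run, and none of the named peaks changed sign; 78 of the values for named peaks lost their call and 1 gained one, against 1337 that kept their side of the threshold. With each library left out in turn, which leaves 1 library in a group that is assumed to vary like the others, depleted zymosan changed 3604 to 4294 peaks, 2767 to 3063 higher and 837 to 1231 lower, and 70.8% to 76.8% of them were higher. The other contrasts then gave 787 to 1613 on S, 1004 to 2140 on cG, 152 to 457 on ScG and 6926 to 9386 against P. At an adjusted p under 0.01, 3418 peaks changed, 2714 higher and 704 lower (79.4% higher), and the other contrasts gave 1179, 1212, 232 and 6957. Fitting only the libraries compared gave 3099 higher (64.8%), 2068 changed on cG and 560 on ScG; only groups with a high chrM share gave 1305 lower (73.0% higher) and 481 on ScG. A replicate block gave 4942 higher and 2074 lower over all libraries and 3073 higher (64.8%) within those compared. Within the libraries compared, the block gave 4739 changed peaks against control, beside 4784 without it. On S, cG and ScG it gave 3735, 3083 and 901, beside 2898, 2068 and 560 without it. Whether replicate numbers pair the samples on these backgrounds was not tested. Scaling by total counts gave 66.4% higher and 6008, 18080 and 20506 changed peaks on S, on cG and against P. TMM on the 10000 highest peaks gave 72.2%, abundance-dependent offsets 64.8%, the chrM peak kept 69.2%, a mean of at least 1 CPM 68.7% and leaving out peaks over 1000 CPM, chosen after seeing the data, 69.0%. The cause of these shifts was not tested. With 9395816 to 11965163 usable counts per library, a peak at the median of 2.10 CPM rests on few counts, and smaller changes there were not detectable at this depth.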
